A study of Mus musculus with 8 samples.

Results

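Transcripts of 9 genes that act in the prophase of meiosis were followed in mature mouse eggs with and without Setd1b. The genes were chosen by name, as the rows of Sycp1, Sycp2, Sycp3, Mei4, Brca2, Dmc1, Msh4, Msh5 and Hormad1 among the 37224 genes of the count table, and all 9 were found. They and the further lists below were chosen with earlier results of these data known. Of the 9 genes, 4 fell in the knockout eggs (Sycp2, Sycp3, Mei4 and Brca2), 4 did not pass the test (Sycp1, Dmc1, Msh4 and Hormad1), and Msh5 had too few reads to be tested.

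The study compared 4 knockout with 4 control oocytes, each sequenced alone, all collected at MII, the arrest at which a mouse egg is ovulated, after superovulation of the females. The knockout is named Setd1bGdf9cKO in the labels, a conditional knockout of Setd1b, which encodes a histone H3 lysine 4 methyltransferase, with a name that refers to Gdf9, a gene expressed in oocytes. What allele the controls carried, which exons were removed, the strain, the age and whether the oocytes of a group came from separate females are not given in the sources used here. The p-values therefore measure the spread between these oocytes, which may be smaller than that between animals.

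In female mice, meiotic prophase takes place in the fetal ovary. Homologous chromosomes are then cut, paired along a protein scaffold called the synaptonemal complex, and joined by crossovers. The oocyte afterwards rests, grows and is ovulated long after this machinery has done its work. Transcripts of such genes can nevertheless be present in grown oocytes, and some of the proteins also act in DNA repair outside meiosis. The counts do not tell when the transcripts seen here were made. RNA was primed on poly(A) tails, so a lower level and a shorter tail cannot be told apart.

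The sequences just upstream of 5 of the genes are shown because promoters of germline genes can carry sites through which they are silenced in other cells. As background, the repressor complex PRC1.6 reaches such promoters through MAX with MGA, which bind the E-box CACGTG, and through E2F6, which binds the E2F core GCGGGA. The promoters of the 4 genes that fell and of Hormad1, which was almost silent, follow as RefSeq gives them on GRCm38.p6, the 250 bases before the transcription start, 5′ to 3′ on the strand of the gene. Capitals mark CACGTG, which reads the same on both strands, and GCGGGA or its reverse complement.
Sycp2: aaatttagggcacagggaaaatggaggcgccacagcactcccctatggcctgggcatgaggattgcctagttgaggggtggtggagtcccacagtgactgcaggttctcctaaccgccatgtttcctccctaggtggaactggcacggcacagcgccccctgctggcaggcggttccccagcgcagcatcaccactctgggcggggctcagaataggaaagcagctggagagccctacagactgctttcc
Sycp3: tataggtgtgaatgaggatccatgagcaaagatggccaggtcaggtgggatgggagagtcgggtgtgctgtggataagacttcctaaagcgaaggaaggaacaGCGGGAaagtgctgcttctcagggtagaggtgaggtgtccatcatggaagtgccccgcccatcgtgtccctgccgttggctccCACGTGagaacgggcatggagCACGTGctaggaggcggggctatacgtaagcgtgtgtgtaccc
Mei4: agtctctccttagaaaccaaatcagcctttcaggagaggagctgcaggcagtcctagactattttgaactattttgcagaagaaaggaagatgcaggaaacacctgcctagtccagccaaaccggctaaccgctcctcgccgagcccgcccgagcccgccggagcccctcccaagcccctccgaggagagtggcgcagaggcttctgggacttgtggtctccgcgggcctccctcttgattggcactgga
Brca2: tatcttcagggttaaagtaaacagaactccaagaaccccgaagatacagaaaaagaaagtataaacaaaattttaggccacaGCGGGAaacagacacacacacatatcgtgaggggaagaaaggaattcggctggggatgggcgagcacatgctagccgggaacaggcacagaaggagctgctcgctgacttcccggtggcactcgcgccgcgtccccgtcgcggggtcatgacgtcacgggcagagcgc
Hormad1: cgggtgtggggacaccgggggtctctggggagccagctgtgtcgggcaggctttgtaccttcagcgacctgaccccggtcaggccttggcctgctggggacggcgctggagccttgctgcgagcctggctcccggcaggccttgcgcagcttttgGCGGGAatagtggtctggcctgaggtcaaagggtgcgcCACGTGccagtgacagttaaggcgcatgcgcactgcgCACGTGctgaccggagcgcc
The windows are chr2:178407659-178407908 on the minus strand for Sycp2, and on the plus strand chr10:88459337-88459586 for Sycp3, chr9:81863420-81863669 for Mei4, chr5:150522371-150522620 for Brca2 and chr3:95559427-95559676 for Hormad1. The motifs did not divide the genes that fell from the others. Sycp3 and Hormad1 each held CACGTG at 2 places and GCGGGA at 1, and Brca2 held GCGGGA alone. Sycp2 and Mei4 held neither in this window, which says only that these letters are not there. Over all 9 genes, searched on both strands, 3 promoters held CACGTG (Sycp1 beside Sycp3 and Hormad1), against 6.05% of 27025 promoters in the table. GCGGGA stood in 5 promoters (Dmc1 and Msh5 beside the 3 named), against 16.9% of all. The GC box GGCGGG, which can overlap GCGGGA, stood in 6 promoters against 32.6% of all. CpG counts ranged from 4 in the Msh4 window to 22 in the Msh5 window, with 7 for Sycp2, 12 for Sycp3 and Mei4, 18 for Brca2 and 19 for Hormad1, against a median of 6 over all promoters. The Msh4 window ends at chr3:153905141, inside the gene as counted, which runs to 153906138 on the minus strand. Its CpG count and lack of motifs may therefore not describe the start of the counted gene. The Msh5 window, chr17:35046623-35046872, lies partly inside its counted gene, which runs to 35046745 on the minus strand. Its values are therefore not all from upstream of that gene. The windows of Sycp2 and Sycp3 reach a short way into their counted genes, which run to 178407685 and from 88459569.

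Each library held 9488899 to 13519404 reads counted in genes. Levels are given as CPM, read counts brought to 1 common library size with TMM factors for composition, or as RPKM, which also divides by gene length and is used to compare genes with each other. Of 11066 genes with enough reads to test, 1347 (12.2%) lay lower in the knockout group and 1503 (13.6%) higher at the threshold of 0.05 on the adjusted p, which makes 25.8% called in either direction. Over every tested gene the log2 fold changes had a median of 0.10. Without the composition scaling it was 0.49, and the split became 504 lower and 2382 higher. All 8 oocyte markers examined were expressed, with summed CPM of 8445 to 13040 in knockout and 10540 to 13300 in control libraries. These sums hide changes of single markers. Zp1, Zp2, Zp3 and Nlrp5 were called higher in knockout oocytes (log2 fold changes of 1.54, 3.025, 1.71 and 1.66). Oosp1 was called lower (-1.43), and Gdf9, Bmp15 and Mos did not pass. Of 13 cumulus and granulosa cell markers, 6 had no read in any library (Foxl2, Amh, Amhr2, Inha, Tnfaip6 and Ptx3). The summed level of that list was 110.2 to 184.4 CPM in knockout and 215.8 to 242.3 in control libraries, nearly all from Kitl, Cyp19a1 and Esr2. Cyp19a1 (log2 fold change -0.85) and Esr2 (-0.80) were called lower in knockout oocytes, and Kitl (-0.40) did not pass. The other 10 markers summed to at most 1.73 CPM in a knockout and 3.09 in a control library.

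Setd1b itself, the targeted gene, stood at 4.43, 5.06, 2.97 and 3.54 CPM in knockout libraries 1 to 4 and at 10.7, 12.8, 9.24 and 10.9 CPM in control libraries 1 to 4. Every knockout library lay below every control library. On the log2 scale the difference was -1.44 ± 0.41 (SE; adjusted p = 0.0221). Unless another tool or an alternative setting is named, each adjusted p came from the quasi-likelihood test of edgeR with Benjamini-Hochberg adjustment over all tested genes. Each SE was derived from that test, as the size of the log2 fold change over the square root of its F statistic. The call was lost without the composition scaling (adjusted p = 0.0895), with a trend on gene length removed (0.0730), without knockout library 3 (0.0519) and without control library 2 (0.0540). As the labels do not name the removed exons, reads over the whole gene check the genotype only in part.

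**Figure D1:**
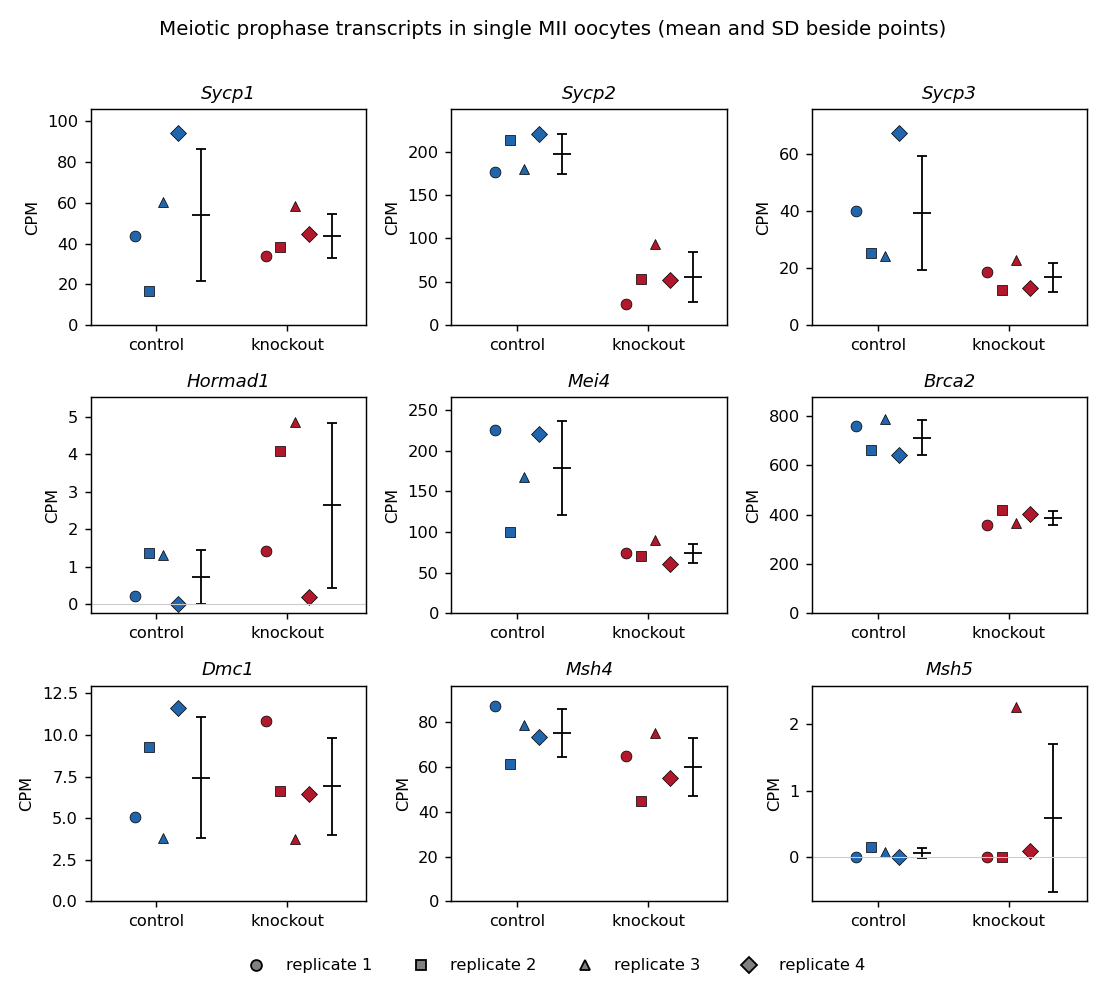
Level of each of the 9 genes in CPM (vertical axes, 1 scale per panel) in the 4 knockout and 4 control oocytes; each point is 1 library, and the bars give the mean and SD. In this scaled CPM the groups do not overlap for Sycp2, Sycp3, Mei4 and Brca2, and overlap for the other 5 genes.

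Of the synaptonemal complex genes, Sycp2 and Sycp3 fell, while Sycp1 did not pass the test. A pass beside a failure is no test of a difference between the genes. Of all 9 genes the test called 4 lower and 0 higher. The same counts were obtained at an unadjusted p under 0.05 and with DESeq2 and voom, beside the 12.2% of all tested genes called lower and 13.6% called higher. In the same 4 genes all knockout libraries lay below all control libraries in scaled CPM, which held for 13.6% of tested genes. By library totals alone, the groups overlapped for Sycp3 and Mei4. None of the 8 tested genes had all knockout libraries above all controls, against 17.7% of tested genes. As the genes were chosen with earlier results known, these shares do not measure an excess. The 8 tested genes had a median log2 fold change of -0.60, beside 0.10 over all tested genes. It depended on the scaling and on which genes were tested: it was -0.21 without the composition scaling, -0.33 for all 9 genes with no filter, -0.36 for all 9 with DESeq2 and -0.92 for the 6 genes with at least 10 CPM in 4 libraries.

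Sycp2 (ENSMUSG00000060445, mm10 chr2:178345293-178407685, minus strand) encodes a large protein of the chromosome axis. It stood at 24.2, 53.2, 93.3 and 52.0 CPM in knockout libraries 1 to 4. In control libraries 1 to 4 it stood at 176, 213, 179 and 220 CPM. The groups did not overlap, and the knockout libraries were the more scattered of the 2 groups, with library 1 lowest and library 3 highest. The means were 55.7 ± 28.4 (SD, n = 4) and 197 ± 22.8 CPM, a 3.54-fold lower level in knockout oocytes. The log2 fold change of -1.83 ± 0.32 (SE) had an adjusted p of 0.00214. It was the largest fall among the 9 genes.

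Sycp3 (ENSMUSG00000020059, chr10:88459569-88473236, plus strand) encodes the coiled-coil partner of Sycp2 that builds the axis fibres. Its levels were 18.8, 12.3, 23.0 and 13.2 CPM in knockout and 39.9, 25.4, 24.4 and 67.3 CPM in control libraries. The groups were apart by little: the highest knockout library, 3, was just under the lowest control library, also numbered 3. By library totals alone the groups overlapped, as knockout library 3 (256 of 10413775 reads) lay above control library 3 (296 of 12827443). The log2 fold change was -1.22 ± 0.37 (SE) with an adjusted p of 0.0301, and the mean was 2.33-fold lower. This call was the least firm of the 4. It passed in 9 of 16 alternative settings, where adjusted p ranged from 0.00612 (DESeq2) to 0.1096 (edgeR without the composition scaling). It was lost without the composition scaling, and when knockout library 1, 2 or 4 or control library 1 or 4 was left out (adjusted p from 0.0511 to 0.0944). Of its 1264 exon bases, 660 (52.2%) overlap exons of Chpt1, a choline phosphotransferase gene on the opposite strand. The libraries carry no strand, and reads that overlap both genes went to neither. Chpt1 had 5.79 CPM in knockout and 3.35 in control oocytes, with a log2 fold change of 0.79 ± 0.59 (adjusted p = 0.358).

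Sycp1 (ENSMUSG00000027855, chr3:102818499-102936100, minus strand) encodes the transverse filament that holds the paired axes together. It had 34.0, 38.2, 58.5 and 44.9 CPM in knockout and 43.8, 17.0, 60.7 and 94.2 CPM in control libraries. The 4 knockout values all lay between the lowest and highest control values. The log2 fold change was -0.30 ± 0.41 (adjusted p = 0.634), and its sign turned without the composition scaling (0.12), with voom (0.09) and without control library 4 (0.11). The ratio of Sycp2 to Sycp1 RPKM was 0.41 to 0.92 in the knockout libraries and 1.35 to 7.25 in the controls, so that the groups did not overlap. The ratio of Sycp2 to Sycp3 RPKM overlapped between the groups, at 0.27 to 0.92 in knockout and 0.69 to 1.78 in control libraries.

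Hormad1 (ENSMUSG00000028109, chr3:95559677-95587671, plus strand), which marks unpaired chromosome axes, was close to silent. It had 19, 54, 54 and 2 reads in knockout and 2, 17, 16 and 0 in control libraries. The groups overlapped: knockout library 4 and control library 1 had 2 reads each, while the 2 highest values were both from knockout libraries. With a log2 fold change of 1.83 ± 1.17 (adjusted p = 0.276), no difference was detectable at this depth. A library with no read allows up to 3 counts, or 0.240 CPM in control library 4 before composition scaling, and this covers counting error only.

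Mei4 (ENSMUSG00000043289, chr9:81863670-82206007, plus strand) encodes a part of the machinery with which SPO11 makes the DNA breaks that start recombination. The knockout libraries stood at 74.2, 70.6, 89.6 and 60.9 CPM and the control libraries at 226, 101, 168 and 220 CPM. Every knockout library lay below every control, and the nearest values were those of knockout library 3 and control library 2. By library totals alone their order turned, with 996 of 10413775 reads in knockout library 3 against 1258 of 13519404 in control library 2. The means were 73.8 ± 11.9 and 179 ± 58.3 CPM (SD, n = 4), a 2.42-fold difference. The corresponding log2 fold change, -1.28 ± 0.25 (SE), had an adjusted p of 0.00389. Spo11, the gene of the enzyme itself, had no read in any of the 8 libraries.

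Brca2 (ENSMUSG00000041147, chr5:150522630-150569746, plus strand) acts on broken DNA, in meiosis and in DNA repair of dividing cells. It had 359, 418, 367 and 402 CPM in knockout and 758, 661, 790 and 644 CPM in control libraries. The groups were far apart, and both were tight, with a coefficient of variation of 7.29% in knockout and 10.04% in control libraries. The mean was 1.85-fold lower in knockout oocytes. On the log2 scale it fell by 0.88 ± 0.15 (SE, adjusted p = 0.00147). Brca2 is a long gene, with 10724 exon bases against a median of 3580 over tested genes, and with a trend on gene length removed the log2 fold change was -0.50 (adjusted p = 0.0297). Without the composition scaling it was -0.49.

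Dmc1 (ENSMUSG00000022429, chr15:79561500-79605084, minus strand), the recombinase that acts in meiosis alone, had 10.82, 6.64, 3.78 and 6.43 CPM in knockout and 5.07, 9.28, 3.80 and 11.6 CPM in control libraries. The groups overlapped throughout. The log2 fold change was -0.10 ± 0.51 (adjusted p = 0.904), with either sign among the alternative settings (-0.40 to 0.33).

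Msh4 (ENSMUSG00000005493, chr3:153857147-153906138, minus strand) and Msh5 (ENSMUSG00000007035, chr17:35028605-35046745, minus strand) encode the subunits of a clamp that holds recombination intermediates until they become crossovers. Msh4 had reads in every library in numbers that Msh5 did not approach. Msh4 had 65.0, 44.9, 75.3 and 55.2 CPM in knockout and 87.2, 61.3, 78.99 and 73.5 CPM in control libraries, overlapping groups with a log2 fold change of -0.32 ± 0.22 (adjusted p = 0.295). Without the composition scaling its sign turned (0.07). Msh5 had 0, 0, 25 and 1 reads in knockout and 0, 2, 1 and 0 reads in control libraries. Nearly all of its reads came from knockout library 3, and it was not tested. With no filter on low counts its adjusted p was 0.322.

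**Figure D2:**
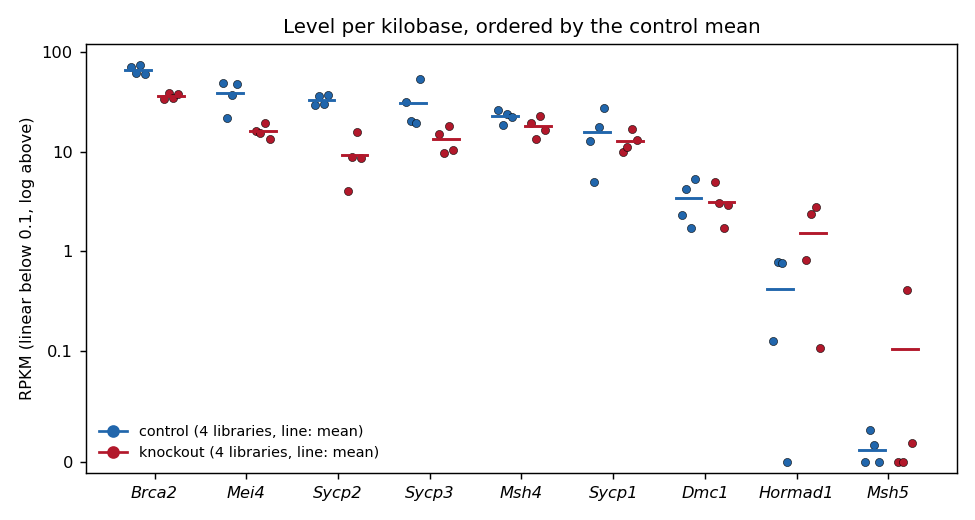
Level per length of each gene in RPKM (log axis, linear below 0.1) in every library, with the 9 genes set side by side; points are single oocytes of the 2 groups and lines their means. Brca2 is highest in both groups, and Msh5 and Hormad1 are lowest.

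Per length, the order in control oocytes was Brca2, Mei4, Sycp2, Sycp3, Msh4, Sycp1, Dmc1, Hormad1 and Msh5. Mean RPKM ran from 66.5 for Brca2, above 91.2% of tested genes, through 39.0 for Mei4, 33.1 for Sycp2, 31.1 for Sycp3, 22.6 for Msh4 and 15.7 for Sycp1 to 3.40 for Dmc1 and 0.420 for Hormad1. From Mei4 down to Sycp1, each pair of neighbours changed order in at least 1 control library, so their order is not set by these values. Brca2 lay above Mei4, Sycp1 above Dmc1 and Dmc1 above Hormad1 in all 4 control libraries. In knockout oocytes the mean RPKM was 36.0 for Brca2, 18.1 for Msh4, 16.1 for Mei4, 13.3 for Sycp3, 12.8 for Sycp1 and 9.33 for Sycp2, where Sycp1 lay above Sycp2 in all 4 libraries. Sycp2 stood above 84.0% of tested genes in controls and above 62.7% in knockout oocytes, the largest such step among the 9 genes. The Sycp3 values divide by its full length. Over the 604 bases it shares with no other gene they came to 27.9 RPKM in knockout and 65.0 in control oocytes, if no read was counted on the shared bases.

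Added over the 9 genes, levels ran from 102.6 to 132.2 RPKM in knockout and from 167.9 to 253.0 RPKM in control libraries. Brca2 alone made up 51.1 to 64.5% of the reads of the 9 genes in knockout and 48.4 to 60.7% in control libraries. No other gene of the list had as many reads in any library.

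The 3′ ends of the 9 transcripts did not divide along the same line as the levels. In GENCODE M21, the 3′ UTR of the transcript with the longest coding sequence had 1040 bases in Sycp2, 1238 in Mei4 and 1016 in Dmc1, and 134 to 326 bases in the other 6, against a median of 994 over 9990 tested genes. TTTTAT is the DNA spelling of an element through which maturing oocytes lengthen poly(A) tails. It stood in the last 200 bases of the 3′ UTR in 4 of the 9 transcripts on the sense strand, beside 24.1% of tested genes. Those were Sycp2 and Brca2, which fell, and Sycp1 and Dmc1, which did not pass. For Msh5 and Hormad1 the whole 3′ UTR, of 136 and 134 bases, was searched. The poly(A) signal AATAAA stood in the last 40 bases of 5 of the 9, beside 62.1% of tested genes. Of the 4 with TTTTAT, only Brca2 held it. A match is a description of letters, not of use.

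**Figure D3:**
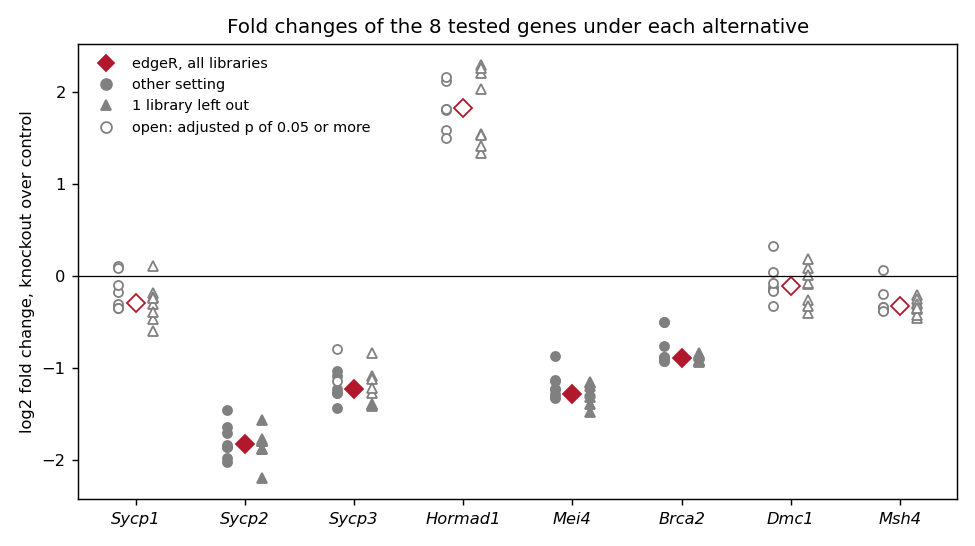
Log2 fold change, knockout against control, of the 8 tested genes under the main analysis and each alternative setting; filled points had an adjusted p under 0.05, and triangles leave out 1 library. Sycp2, Mei4 and Brca2 passed in every setting run, Sycp3 in 9 of 16, and the other 4 genes in none.

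The wider set of meiotic prophase genes was called in either direction about as often as tested genes in general. Of 58 further genes written down for the same process, 55 were matched and 37 had enough reads to test; 6 were called lower, 5 higher, and 26 did not pass, beside 12.2% lower and 13.6% higher over all tested genes. Their median log2 fold change was -0.16, beside 0.10 over all tested genes. In scaled CPM, all knockout libraries lay below all controls in 8 of the 37 and above in 8 others, beside 13.6% and 17.7% of all tested genes. No read was found in any library for 4 of them: Spo11, the cohesin Rec8, the crossover gene Prr19 and the meiotic entry factor Stra8.

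**Figure D4:**
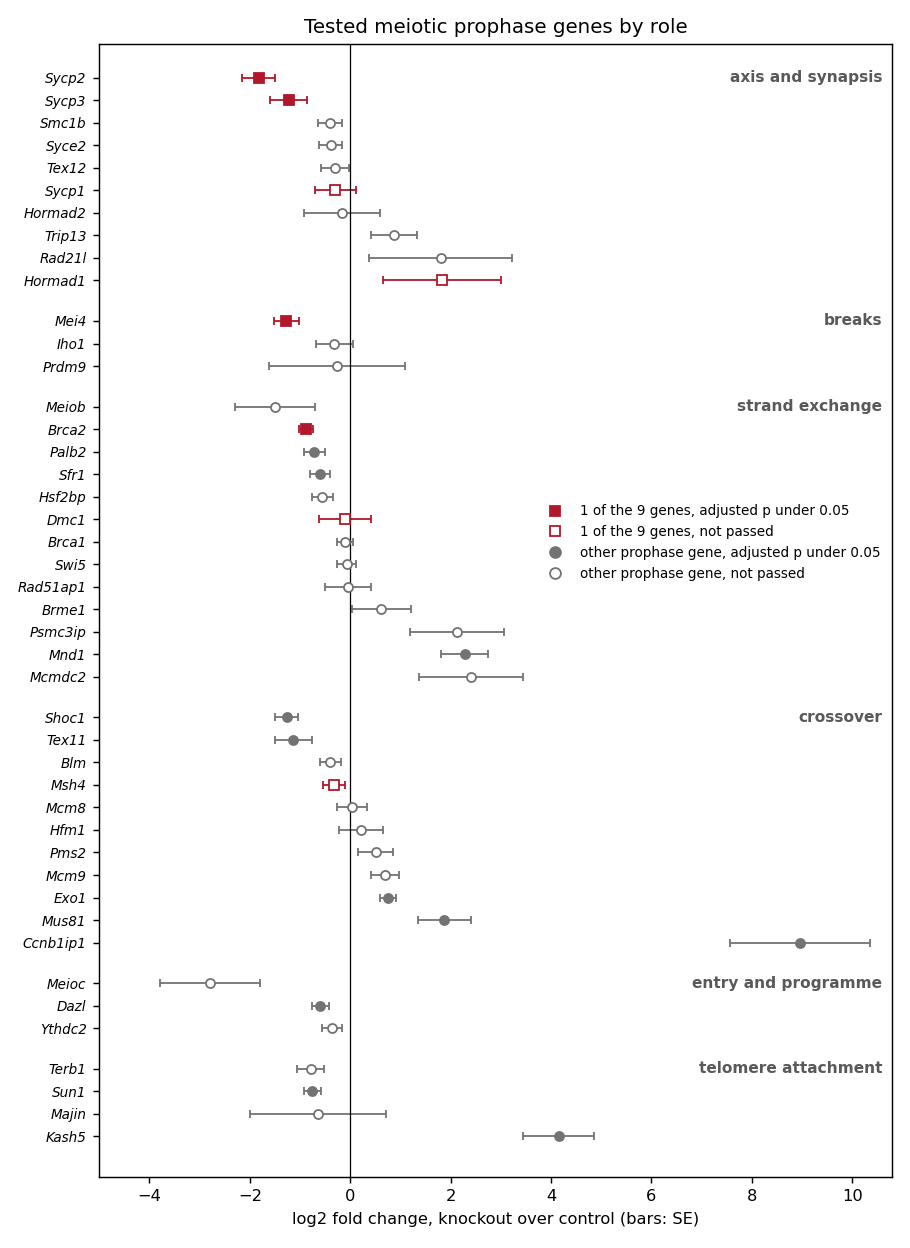
Log2 fold change with its SE, knockout against control, for the 8 tested genes of the main list and 36 of the 37 tested further prophase genes. Red squares are genes of the main list and grey circles the further genes. Filled points had an adjusted p under 0.05, and open points did not. Kash5 and Ccnb1ip1 lie far to the right, and the fitted value of Ccnb1ip1, with no read in controls, is no measure of size.

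Among the partners of Brca2 in strand exchange, 2 of 12 fell and 1 rose, beside 12.2% and 13.6% of all tested genes. Palb2, which brings BRCA2 to its place of work, had 131 ± 25.7 CPM in knockout and 215 ± 39.9 in control oocytes (SD, n = 4; log2 fold change -0.71 ± 0.20, adjusted p = 0.0226). Sfr1, a recombination cofactor, had 644 ± 84.8 and 980 ± 253 CPM (log2 fold change -0.61 ± 0.20, adjusted p = 0.0393). Both calls were lost without the composition scaling, where the log2 fold changes were -0.30 for Palb2 and -0.20 for Sfr1. They were also lost when single libraries were left out, knockout 1 or 3 or control 1 for Palb2 and knockout 1, 2 or 4 or control 1 or 4 for Sfr1. Palb2 also did not pass with a gene length trend removed (adjusted p = 0.0638), nor Sfr1 with a minimum of 10 CPM (adjusted p = 0.0609). Mnd1, a DMC1 cofactor, rose: its levels were 28.2, 34.7, 35.5 and 37.0 CPM in knockout and 6.06, 3.68, 3.05 and 15.1 CPM in control libraries. The groups did not overlap, and the log2 fold change of 2.28 ± 0.47 had an adjusted p of 0.00493. Swi5, the partner of Sfr1, had the highest CPM of those that did not pass (log2 fold change -0.07, adjusted p = 0.821, with either sign among the settings).

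Among crossover genes, 2 of 10 fell and 3 rose, against the same shares of all tested genes (12.2% and 13.6%). Shoc1, needed for crossover intermediates to form, had 56.5, 69.7, 98.8 and 64.1 CPM in knockout and 220, 188, 157 and 130 CPM in control libraries. Every knockout library lay below every control, with a log2 fold change of -1.27 ± 0.23 (adjusted p = 0.00231). By library totals alone the groups overlapped, as knockout library 3 (1098 of 10413775 reads) lay above control library 4 (1298 of 12504464). Shoc1 acts with the MSH4 clamp, and the ratio of Shoc1 to Msh4 RPKM was 0.50 to 0.89 in knockout and 1.02 to 1.76 in control libraries, without overlap. Tex11, an X-linked gene of the same step, had overlapping groups, 39.4 ± 10.7 against 86.4 ± 45.2 CPM, with a log2 fold change of -1.13 ± 0.36 (adjusted p = 0.0382) that passed in 8 of 16 alternative settings. It did not pass without knockout library 1, 2 or 4 or control library 1 or 4 (adjusted p from 0.0725 to 0.112).

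Exo1, a nuclease of DNA repair and crossing over, rose from 115 ± 7.29 to 194 ± 24.0 CPM (log2 fold change 0.76 ± 0.16, adjusted p = 0.00561), with no overlap. Mus81, a nuclease that cuts joint molecules, had 34.5, 18.0, 9.90 and 6.90 CPM in knockout and 3.86, 5.52, 6.44 and 3.01 CPM in control libraries. Its log2 fold change of 1.88 ± 0.53 (adjusted p = 0.0221) lost its call without knockout library 1 (1.303, adjusted p = 0.109) or library 2 (1.85, adjusted p = 0.0574) and with voom (1.65, adjusted p = 0.0602). Ccnb1ip1, which encodes the crossover ligase HEI10, had 112, 21, 25 and 100 reads in knockout and 0 in each control library. Its knockout mean was 78.5 times the level of 3 counts over the control group (adjusted p = 0.00219). The single knockout libraries ran from 1.59 to 9.32 CPM, a spread that this ratio leaves out. Blm, a helicase, had the highest CPM of the crossover genes that did not pass (log2 fold change -0.39, adjusted p = 0.178).

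Of the telomere genes, 1 of 4 fell and 1 rose, and of the entry genes 1 of 3 fell. Over all tested genes, 12.2% fell and 13.6% rose. Sun1 and Kash5 encode the inner and outer parts of the bridge that moves telomeres in prophase. Sun1 fell from 160 ± 8.54 to 95.0 ± 14.3 CPM (log2 fold change -0.75 ± 0.17, adjusted p = 0.00711), a call lost without the composition scaling (-0.37, adjusted p = 0.116) and narrowly with a gene length trend removed (-0.48, adjusted p = 0.0510). Kash5 rose from 2 to 4 reads in each control library to 87, 80, 37 and 49 reads in knockout libraries (log2 fold change 4.15 ± 0.71, adjusted p = 0.00179). Terb1, a telomere adaptor, had 51.3 against 88.9 CPM (log2 fold change -0.79, adjusted p = 0.0534). Its groups did not overlap in scaled CPM, and it passed in 4 of 16 alternative settings. Dazl, an RNA-binding protein needed for germ cells to enter meiosis and for translation in maturing oocytes, had 1395 ± 171 and 2105 ± 386 CPM (log2 fold change -0.59 ± 0.17, adjusted p = 0.0244). Its call was lost without the composition scaling (-0.19, adjusted p = 0.298) and when knockout library 1, 2 or 4 or control library 1 was left out. For Ythdc2, a meiotic RNA helicase, the log2 difference was -0.36 (adjusted p = 0.211).

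In the 4 smaller groups no gene passed edgeR's test at an adjusted p under 0.05, nor at an unadjusted p under 0.05; DESeq2 called 1 of the synaptonemal complex genes and 1 of the genes of break formation higher, and voom none. Those with the highest CPM in each group were Syce2 of the central element (log2 fold change -0.39, adjusted p = 0.235), the cohesin Smc1b (-0.40, adjusted p = 0.254), the break factor Iho1 (-0.32, adjusted p = 0.565) and Trip13, which strips HORMAD proteins from axes (0.87, adjusted p = 0.183). Syce2, Smc1b, Iho1 and Ythdc2 changed sign without the composition scaling, with values from 0.02 to 0.06. Six6os1, a central element gene with too few reads to test, was named after its values were seen. It had 32, 62, 16 and 4 reads in knockout and 0 in each control library. Its knockout mean was 32.4 times the level of 3 counts over the control group. The single knockout libraries ran from 0.373 to 4.68 CPM, a spread that this ratio leaves out.

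The authors' deposited table lists 2709 genes at an adjusted p under 0.01, beside 37224 genes in the count table. It came from the same 8 libraries, so it is no independent check. The table held 4 of the 9 genes, the same 4. Its unshrunken log2 fold changes were -1.86 for Sycp2, -1.32 for Mei4, -1.27 for Sycp3 and -0.93 for Brca2. Of the 55 further genes, the authors' deposited table held 11, of which 5 were lower and 6 higher.

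The genes whose log2(CPM + 1) followed each fallen gene most closely over the 8 libraries were found among 6031 candidates as a description. For Sycp2 they were Smg1, a kinase of RNA surveillance (r = 0.988), and Nfxl1 (0.985). Degs1, a sphingolipid desaturase (0.992), and Lrp1b, a receptor of the LDL receptor family (0.967), were closest to Sycp3. Those closest to Mei4 were Becn1, an autophagy gene (0.979), and Zfp820 (0.978), and those closest to Brca2 were Satb1, a chromatin protein (0.984), and Rfpl4, an oocyte RING finger protein (0.984). All points share the 2 genotypes, so a difference between the groups is part of each r.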

How the data were processed

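Per the labels' protocols, RNA of each MII oocyte was amplified with the SMARTer Ultra Low kit and sequenced as 75-bp single reads. Tools named in the submitters' processing notes are GSNAP, featureCounts 1.4.4 and DESeq2 1.3.79, with the build mm10. Per the file headers, the deposited counts are reads per gene of Ensembl release 69. Reads had a mapping quality of at least 1, and strand was not used. The kit has no molecular identifiers. The authors' deposited comparison table holds log2 fold changes, a standard error (a score), p-values, a normalized signal and RPKM of 2709 genes. It was only set beside the results.

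The deposited counts of all 37224 genes were analysed with edgeR 4.0.16 in R 4.3.3: filterByExpr, TMM factors, quasi-likelihood F test, Benjamini-Hochberg adjustment over 11066 genes, threshold 0.05. CPM and RPKM here were computed from those counts, TMM-scaled totals and gene lengths. Totals ranged from 9488899 to 13519404. The procedure was tested on simulated counts. The 9 genes and the lists were chosen with earlier results of these data known. Named were the 9 genes, Setd1b, each further prophase gene that passed, the gene with the highest CPM in each of its 8 groups that did not, and the 2 genes most correlated with each fallen gene. Same-numbered knockout and control libraries did not deviate together (r from -0.159 to -0.0313), so the numbers were not used as pairs. Alternatives were library totals without TMM, median-of-ratios factors, no filter, a minimum of 10 CPM in 4 libraries, DESeq2 1.42.0 and voom (limma 3.58.1). Voom was run with library quality weights throughout. Further alternatives were a replicate block, removal of a gene length trend, a threshold of 0.01 and leaving out each library. Promoters came from a RefSeq table (GRCm38.p6), in which all 9 genes matched. For 1 gene of the further list the values are counted but not reported here.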

Additional observations from a re-analysis of the deposited data

Results flagged for a closer look

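In groups of 4 libraries, a value is given here where its gap to the nearest other value took up nearly the whole range of the group. Of 55 groups over 28 genes, 2 met this, and chance gives about 1 in 20 groups. Msh5 had 2.25 CPM in knockout library 3, against 0 to 0.0932 CPM in the other 3 knockout libraries. Ythdc2 had 50.95 CPM in knockout library 1, against 71.88 to 72.78 CPM in the other 3.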

How the results depend on the processing

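Of the 9 genes, 3 to 4 were called lower and 0 higher in every alternative run, Sycp3 being the one lost; the median over the tested genes was -0.21 with library totals alone. With the replicate block, a check only since the numbers do not pair the oocytes, Setd1b was at -1.46 (adjusted p = 0.0700), 3 further prophase genes and 861 genes in all were lower, and Sycp3 was at -1.14 (adjusted p = 0.0771); Palb2, Sfr1, Tex11, Mus81 and Dazl did not pass either (adjusted p from 0.0619 to 0.119). With library totals alone Setd1b was at -1.04, 1 further prophase gene was lower with a median of 0.28, and 2382 genes were higher and 504 lower in all. With a gene length trend removed Setd1b was at -1.05. At an adjusted p under 0.01, 2 further prophase genes were lower, and 747 genes were higher and 644 lower. DESeq2 called 8 further prophase genes higher and 10 lower, and the minimum of 10 CPM 3 higher. Leaving out single libraries gave 4 to 8 higher (8 without control library 2) and 2 to 7 lower (2 without knockout library 1, 3 without library 2 or 4) among them. Over all genes it gave 837 (without knockout library 2) to 1244 lower, and for Setd1b -1.57 to -1.33.

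Signs turned for genes that never passed. With library totals alone these were Sycp1 (0.115), Dmc1 (0.333), Msh4 (0.069), Iho1 (0.061), Ythdc2 (0.030), Smc1b (0.024), Swi5 (0.35) and Syce2 (0.017). With voom they were Sycp1 (0.089), Dmc1 (0.043) and Swi5 (0.042), and with the minimum of 10 CPM Swi5 (0.067). Leaving out single libraries gave -0.598 to 0.113 for Sycp1, -0.395 to 0.187 for Dmc1 and -0.173 to 0.075 for Swi5, each highest without control library 4; Dmc1 was also positive without knockout library 3 (0.094) or control library 2 (0.016). Without control library 4 the median of the further prophase genes was 0.075. The cause of these shifts was not tested. At a few reads a gene, as for Msh5 and Hormad1, depth limits what can be seen.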

Other observations

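Some further prophase genes did not pass or were not tested with edgeR but were called by DESeq2. DESeq2 called 8 higher and 10 lower, against 5 and 6 with edgeR. The genes given here were picked out after their values were seen, and do not cover every added call in either direction. Rec114, a partner of MEI4 in break formation, had 16, 29, 9 and 36 reads in knockout and 1, 0, 0 and 1 reads in control libraries, too few to be tested with edgeR (DESeq2 log2 fold change 5.27, adjusted p = 0.00141), and 32.0% of its exon bases overlap Nptn; the authors' deposited table gives it an unshrunken log2 fold change of 5.25. Meioc, which keeps germ cells in the meiotic programme, had 1.71 ± 1.62 CPM in knockout and 11.95 ± 10.98 CPM in control libraries (SD, n = 4), without overlap and with a log2 fold change of -2.80 ± 1.00 (SE, edgeR, adjusted p = 0.0585). DESeq2 (adjusted p = 0.0112) and voom (adjusted p = 0.0295) called it lower. Mcmdc2, a helicase-like protein of meiotic recombination, had 3.86 ± 0.626 CPM in knockout and 0.730 ± 0.784 CPM in control libraries, again without overlap (edgeR log2 fold change 2.41 ± 1.03, adjusted p = 0.109). DESeq2 (adjusted p = 0.0488) and voom (adjusted p = 0.0222) called it higher. Mei4 fell while the reads of Rec114 lay higher in every knockout library than in any control.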
